A study of Mus musculus with 15 samples.

Results

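Amino acid catabolism in the liver was examined through 44 genes that encode its enzymes, taken from the textbook pathways for branched-chain amino acids, aromatic amino acids, lysine, glycine and glyoxylate, sulfur amino acids, histidine, proline and ornithine, and for transamination and glutamate. The list was drawn up with earlier results of these data known. Of the 44 genes, 43 were measured, by 66 of the 45101 probe sets of an Affymetrix Mouse Genome array, among 18194 genes in all. The gene Amt was not analysed here. The array measured total RNA from whole liver of male C57BL/6J mice that were 7 weeks old when the diets began and received them for 9 weeks. There were 5 groups with 3 arrays each, numbered in the labels as separate mice. The ND group received a normal diet with 10 kcal% fat. The HF group received a high-fat diet with 60 kcal% fat. Mice of HFCC, HFDC and HFGC ate the same high-fat food with 2% freeze-dried coffee added, which was caffeinated in HFCC, decaffeinated in HFDC, and unroasted green coffee with its caffeine in HFGC. Coffee was thus always given on top of the high-fat diet, and 1 strain and sex were studied.

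The liver removes the amino group of surplus amino acids by transamination, passes it to glutamate, and sends the carbon skeletons to the TCA cycle, to glucose or to ketone bodies. Most of the pathways for aromatic, sulfur and histidine degradation are strongest in hepatocytes, while the first transamination of branched-chain amino acids takes place mainly in muscle, so that the liver receives their keto acids. Fasting, glucagon and glucocorticoids raise many of these enzymes, and insulin lowers them.

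Levels are given as log2 intensity, and a difference of 1 on this scale is a doubling of the signal. Each gene was read from its brightest probe set. Differences were tested by limma, and a call means a Benjamini-Hochberg p, adjusted over the 18194 genes, under 0.05. In whole liver, fewer cells of a type and less RNA per cell cannot be told apart. The hepatocyte markers were present on every array, with 0 of 7 called between HF and ND by limma. Among genes at or above the median level, 15.2% were called higher and 5.44% lower in that comparison. The markers are bright, with a lowest mean of 11.87 (log2) and Alb at 14.75 in ND and 14.74 in HF. Whether signals this high can follow a change in hepatocyte content was not tested. The summed intensity of these 7 markers was 115533 to 122350 in ND and 110011 to 116061 in HF. The gap between 3′ and 5′ probes of Gapdh and Actb, which widens with RNA degradation, was 0.83 to 0.95 (log2) in ND, 1.08 to 1.4 in HF and 0.7 to 1.07 in the 9 coffee arrays. All 3 HF arrays were therefore above every other array in this measure.

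Between HF and ND, by limma, 7 of the 43 members were higher in HF than in ND (16.3%), and 3 were lower (6.98%). Among all genes, 8.92% were called higher and 4.63% lower. Since 42 of the 43 members lay at or above the median level of all genes, the same shares among genes at or above that level, 15.2% and 5.44%, are the closer background, and the members' shares were near them. The median difference of the members was 0.14, against -0.0016 for all genes and 0.05 for the brighter ones. It was 0.06 to 0.14 with single arrays left out, but -0.0018 with the probe sets of each gene averaged. At an unadjusted p under 0.05, 19 members passed, where 28.8% of all genes and 39.4% of the brighter ones did. The members that rose were Bckdha, Ivd, Fah, Haao, Agxt2, Sardh and Prodh, and those that fell were Aass, Cth and Got1.

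**Figure D1:**
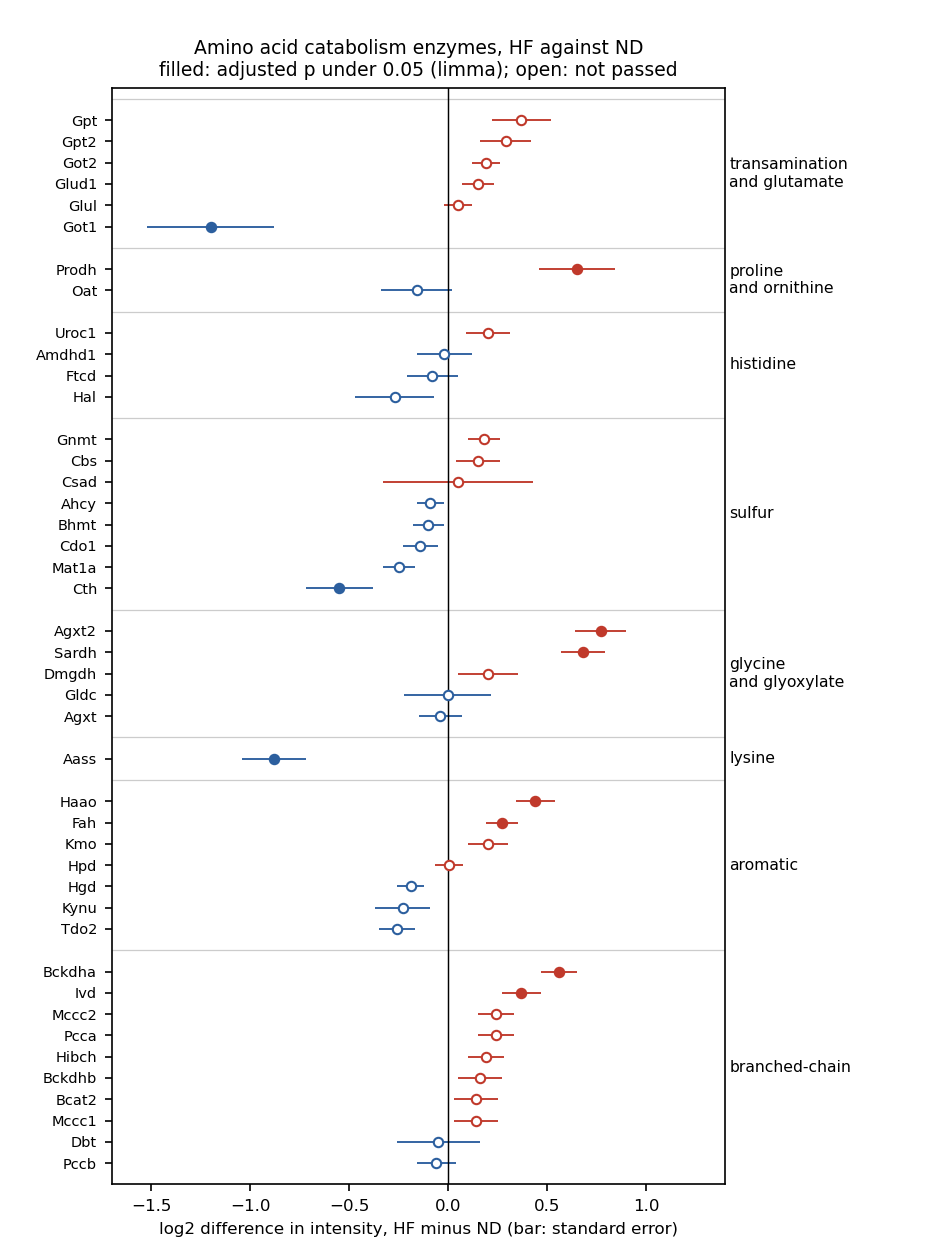
Log2 difference in intensity between HF and ND (horizontal axis) for the 43 measured members, grouped by amino acid class (vertical axis), with 3 arrays per group. Bars are standard errors, filled points passed limma at an adjusted p under 0.05, and colour gives the sign; 7 members above 0 and 3 below 0 are filled, and Got1 lies farthest from 0, at -1.2.

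Among the 10 genes for branched-chain amino acids, 2 rose and 8 lay above 0, with a class median of 0.18. Bckdha encodes the alpha subunit of the decarboxylase of the branched-chain keto acid dehydrogenase complex, the committed step of the pathway. Its log2 intensity was 10.1, 10.39 and 10.21 in ND and 10.59, 10.93 and 10.85 in HF, and the groups did not overlap. Bckdha rose by 0.56 ± 0.09 (SE, n = 3 per group, limma adjusted p = 0.0031), or 1.47-fold. Ivd, the dehydrogenase that takes isovaleryl-CoA onward in leucine breakdown, was at 9.94, 10.27 and 10.03 in ND and at 10.29, 10.47 and 10.57 in HF. The highest ND array thus lay just under the lowest HF array, and Ivd rose by 0.37 ± 0.1 (limma adjusted p = 0.028). Its second, dimmer probe set overlapped, at 9.19, 9.75 and 9.29 in ND and 9.44, 9.42 and 9.52 in HF, and differed by 0.05 ± 0.14. With both averaged the difference was 0.21 and did not pass (limma adjusted p = 0.24). The other 8 genes of the class, which encode the second decarboxylase subunit (Bckdhb), the core of the complex (Dbt), the mitochondrial transaminase (Bcat2) and the later carboxylases and hydrolase (Mccc1, Mccc2, Pcca, Pccb, Hibch), did not pass.

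The aromatic class split. Haao opens the ring of hydroxyanthranilate in the kynurenine branch of tryptophan breakdown, on the way to quinolinate. It read 11.43, 11.61 and 11.33 in ND and 11.74, 11.93 and 12.02 in HF, with no overlap. Haao rose by 0.44 ± 0.1 (limma adjusted p = 0.012). Fah, the last enzyme of tyrosine breakdown, rose by 0.27 ± 0.08 (limma adjusted p = 0.037), with ND arrays at 12.49, 12.63 and 12.5 and HF arrays at 12.65, 12.88 and 12.9. Tdo2, which opens the tryptophan pathway, and Hgd, which opens the ring of homogentisate, had differences of -0.26 ± 0.09 and -0.19 ± 0.07 and did not pass (limma adjusted p = 0.07 and 0.098). The probe sets of Tdo2 differed in sign. A dimmer one read 11.93, 11.99 and 12.05 in ND and 11.96, 12.12 and 12.13 in HF. Another read 12, 11.98 and 12.01 in ND and 11.87, 11.95 and 11.98 in HF.

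Lysine breakdown was represented by Aass, the bifunctional synthase of its first steps. Aass was at 12.21, 12.27 and 12.4 in ND and at 11.68, 11.17 and 11.38 in HF. It fell by 0.88 ± 0.16 on the log2 scale (limma adjusted p = 0.0041), 1.84-fold lower in HF. All 12 arrays of the high-fat groups lay below the 3 ND arrays, since the coffee groups read 11.6, 11.8 and 11.62 (HFCC), 11.49, 11.68 and 11.96 (HFDC) and 11.73, 11.49 and 12.14 (HFGC).

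In the glycine and glyoxylate class, 2 of the 5 measured members rose. Agxt2 encodes the mitochondrial aminotransferase that passes amino groups to glyoxylate and also clears beta-aminoisobutyrate. Its level was 9.62, 10 and 9.93 in ND and 10.49, 10.61 and 10.74 in HF. Agxt2 rose by 0.77 ± 0.13 (limma adjusted p = 0.003), or 1.7-fold, with no overlap. Sardh demethylates sarcosine to glycine in the mitochondrion. It stood at 10.71, 11.19 and 10.77 in ND and at 11.45, 11.58 and 11.68 in HF, and rose by 0.68 ± 0.11 (limma adjusted p = 0.0031). Its second probe set gave a like difference of 0.81 ± 0.11 (limma adjusted p over all probe sets = 0.00094). Dmgdh, which acts just before Sardh in choline breakdown, Gldc and Agxt did not pass.

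**Figure D2:**
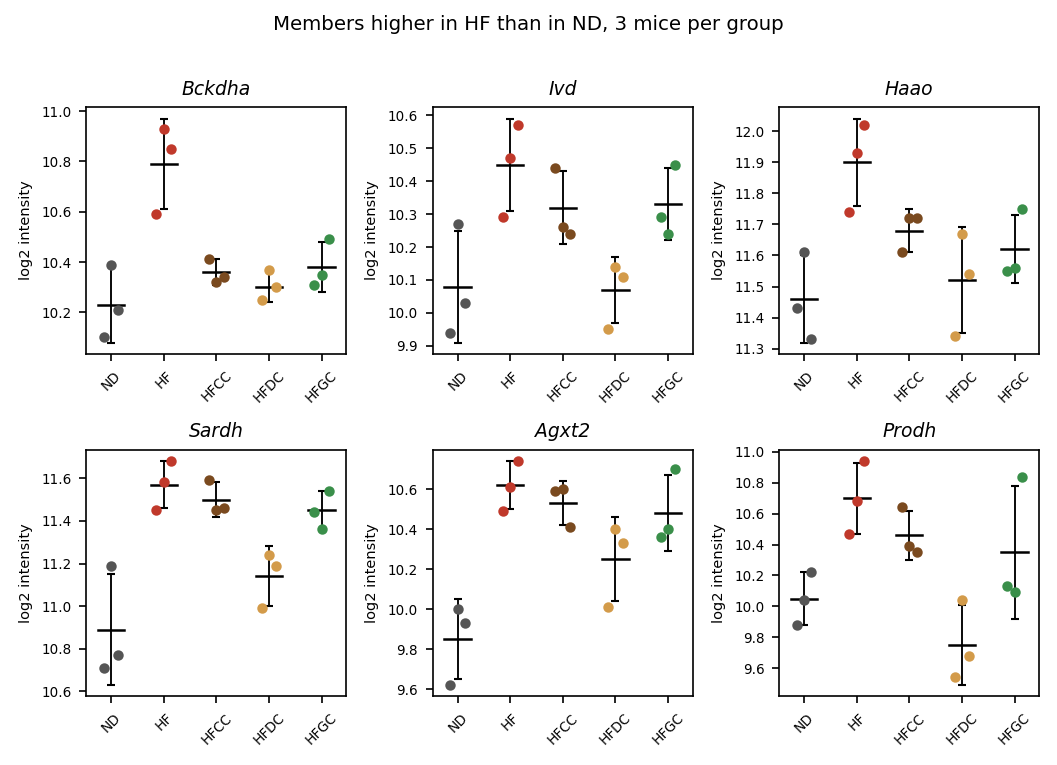
Log2 intensity (vertical axis) of Bckdha, Ivd, Haao, Sardh, Agxt2 and Prodh on each array of the 5 diet groups (horizontal axis). Points are arrays, horizontal bars the group means and error bars the SD (n = 3); in each panel the 3 HF points lie above the 3 ND points, and the HFDC points of Prodh lie at 9.54 to 10.04, under all HF, HFCC and HFGC points.

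Sulfur amino acid genes centred on a median of -0.1, and 1 of 8 passed. Cth, the cystathionine gamma-lyase that yields cysteine and hydrogen sulfide, was at 12.47, 12.6 and 12.8 in ND and at 12.31, 11.82 and 12.07 in HF. It fell by 0.55 ± 0.17 on the log2 scale (limma adjusted p = 0.043), and the groups did not overlap. The call was lost without any one of 9 of the 15 arrays (limma adjusted p from 0.023 to 0.17). Mat1a, the synthase of S-adenosylmethionine in adult liver, differed by -0.25 ± 0.08 and just missed the threshold (limma adjusted p = 0.053). Gnmt, which uses S-adenosylmethionine to methylate glycine to sarcosine, read 13.64, 13.78 and 13.72 in ND and 13.86, 13.87 and 13.94 in HF. The groups did not overlap, but the difference of 0.18 ± 0.08 did not pass (limma adjusted p = 0.13).

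None of the 4 histidine genes passed limma, at an unadjusted p under 0.05 either, and their median was -0.05. Prodh, which starts proline oxidation in the mitochondrion, was at 9.88, 10.04 and 10.22 in ND and at 10.47, 10.68 and 10.94 in HF. Prodh rose by 0.65 ± 0.19 (limma adjusted p = 0.032), and no ND array reached an HF array. Oat, the ornithine aminotransferase, was at 12.37, 12.92 and 12.46 in ND and at 12.8, 12.14 and 12.33 in HF, so that the groups overlapped. Its difference was -0.16 ± 0.18 (limma adjusted p = 0.6).

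The widest change among the members was that of Got1, the cytosolic aspartate aminotransferase. Its level was 11.42, 11.49 and 10.28 in ND and 10.19, 9.73 and 9.66 in HF. Got1 fell by 1.2 ± 0.32 on the log2 scale (limma adjusted p = 0.024), or 2.3-fold, although the third ND array lay close to the HF arrays. The call of Got1 was lost with HF and ND fitted alone and with limma's trend and robust settings. On their brightest probe sets, the other 5 transamination and glutamate genes lay above 0, and none of them passed. Among them Gpt, the alanine aminotransferase, differed by 0.37 ± 0.15 (limma adjusted p = 0.11). Glul, Got2 and Gpt2 also had dimmer probe sets below 0.

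**Figure D3:**
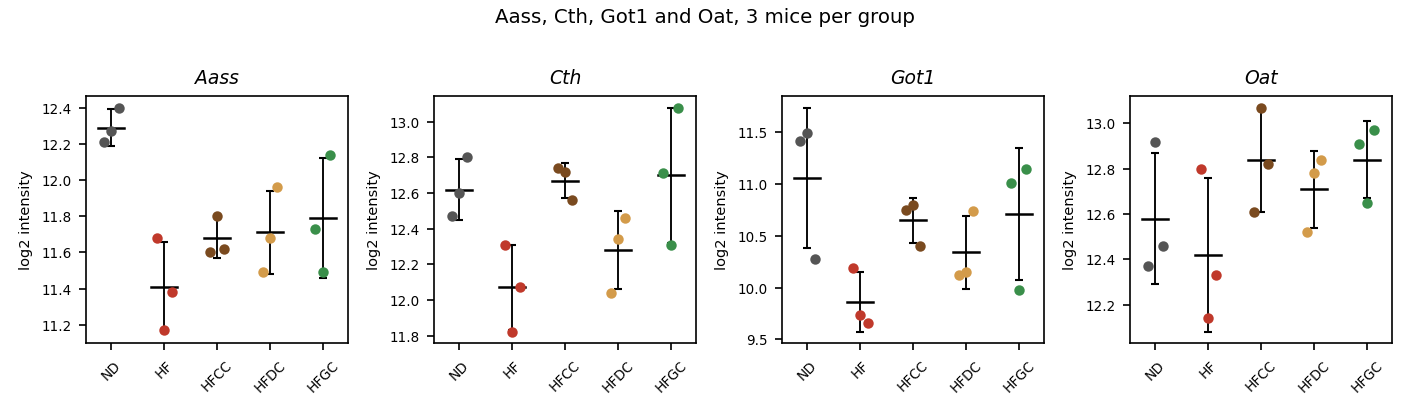
Log2 intensity (vertical axis) of Aass, Cth, Got1 and Oat on each array of the 5 diet groups (horizontal axis). Points are arrays, horizontal bars the group means and error bars the SD (n = 3); the HF points lie under all ND points for Aass, Cth and Got1, and the ND and HF points of Oat overlap, at 12.37 to 12.92 and 12.14 to 12.8.

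In all 10 of these members, replicate 1 was the HF array nearest to ND. The 10 were picked by this same comparison, and the share over all genes was not counted. Over all genes, the calls went from 2465 to 989 without HF replicate 2 and to 1161 without HF replicate 3. HF replicate 1 also had the smallest 3′ to 5′ gap of the HF arrays, 1.08, and whether the gap has a part was not tested. Bckdha, Aass, Agxt2 and Sardh were called without any one of the 15 arrays in turn. Without HF replicate 2 or without HF replicate 3 they were the 4 members called, and without ND replicate 1 there were 6. Ivd and Fah were also lost without ND replicate 3, Prodh and Got1 without ND replicate 2. All 3 HF arrays had wider gaps than every other array, so diet and gap cannot be told apart in comparisons with HF. With the 3′ to 5′ gap as a covariate, 0 of the 43 members were called by limma, 14 passed at an unadjusted p under 0.05 beside 2860 of all 18194 genes, and 14 genes were called on the whole array. Agxt2 then differed by 0.89 ± 0.19 (limma adjusted p = 0.081), Sardh by 0.74 ± 0.17 (0.1) and Bckdha by 0.49 ± 0.14 (0.14), whereas the differences of Aass, Got1 and Cth shrank to -0.44 ± 0.18, -0.63 ± 0.45 and -0.18 ± 0.22.

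The promoters of 4 members called in at least 3 of the 9 comparisons are shown because these genes moved most often. They are the 250 bases before the RefSeq start of the gene, 5′ to 3′ on the gene's own strand, from the mouse build GRCm38.p6. All 4 genes lie on the minus strand, Bckdha at chr7:25658762-25659011, Haao at chr17:83846791-83847040, Prodh at chr16:18089191-18089440 and Sardh at chr2:27247304-27247553. Capitals mark the motifs found.
Bckdha: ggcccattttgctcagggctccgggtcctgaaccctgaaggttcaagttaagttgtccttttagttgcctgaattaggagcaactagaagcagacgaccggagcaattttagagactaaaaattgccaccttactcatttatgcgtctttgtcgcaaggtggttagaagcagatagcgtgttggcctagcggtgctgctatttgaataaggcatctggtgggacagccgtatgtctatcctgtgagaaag
Haao: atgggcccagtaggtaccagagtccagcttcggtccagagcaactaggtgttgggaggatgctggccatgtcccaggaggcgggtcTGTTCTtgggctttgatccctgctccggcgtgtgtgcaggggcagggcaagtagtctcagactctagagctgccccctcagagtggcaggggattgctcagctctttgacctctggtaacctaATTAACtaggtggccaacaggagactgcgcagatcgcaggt
Prodh: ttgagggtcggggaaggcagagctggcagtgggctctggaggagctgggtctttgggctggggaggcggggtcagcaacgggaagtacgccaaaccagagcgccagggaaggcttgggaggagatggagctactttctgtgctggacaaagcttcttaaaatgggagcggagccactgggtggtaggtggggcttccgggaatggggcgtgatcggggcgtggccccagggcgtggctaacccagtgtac
Sardh: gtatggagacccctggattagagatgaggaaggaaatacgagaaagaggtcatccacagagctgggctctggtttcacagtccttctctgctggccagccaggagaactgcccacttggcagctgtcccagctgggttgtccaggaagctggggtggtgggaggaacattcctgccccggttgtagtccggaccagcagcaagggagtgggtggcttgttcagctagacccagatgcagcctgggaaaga
A search for 5 short motifs was run on both strands of the 300 bases around each start, for 32851 promoters and for the 43 promoters of the 38 members that matched by symbol. The glucocorticoid receptor half-site AGAACA was in 19.0% of all promoters and in 5 of the 43 member promoters (11.6%). Its reverse complement TGTTCT is the first stretch in capitals in Haao. The HNF1 half-site GTTAAT was in 7.1% of all promoters and in 4 of the members' promoters, and its reverse complement ATTAAC is the second stretch in Haao. The HNF4 sequence CAAAGTCCA was in 0.475% of all promoters and in 2 of the members', both of Agxt2. The C/EBP palindrome TTGCGCAA and the cyclic AMP element TGACGTCA, in 0.183% and 1.79% of all promoters, were in 0 of the 43. The promoters of Bckdha, Prodh and Sardh held none of the 5 sequences in this window. A match is a description of the letters only.

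The coffee groups were each compared with the same 3 HF arrays, so these comparisons are not independent of each other or of HF against ND. In HFCC, 1 member fell and 0 rose, where 1.26% of all genes fell and 0.379% rose. In HFGC, 1 member fell and 0 rose, against 2.31% and 0.78% of all genes. Decaffeinated coffee had the most calls, with 7 members lower (16.3%) and 0 higher. The background in HFDC was 3.7% of all genes lower, 6.93% lower among the brighter genes, and 1.31% higher. At an unadjusted p under 0.05, limma passed 9 members in HFCC, 18 in HFDC and 11 in HFGC, beside 18.4%, 22.7% and 20.6% of all genes and 29.4%, 33.6% and 31% of the brighter ones.

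Bckdha was the member called lower in each of the 3 coffee groups. It read 10.41, 10.32 and 10.34 in HFCC, 10.25, 10.37 and 10.3 in HFDC, and 10.31, 10.35 and 10.49 in HFGC. All 9 coffee arrays lay below the lowest HF array and within or just above the ND range. The differences from HF were -0.43 ± 0.09 in HFCC, -0.49 ± 0.09 in HFDC and -0.41 ± 0.09 in HFGC (limma adjusted p = 0.038, 0.022 and 0.034). Each call was lost without HF replicate 2, without HF replicate 3 or without any one array of its own coffee group, and that of HFCC also without HFDC replicate 2 or HFGC replicate 2. The difference was -0.34 or lower whichever array was left out. Without HF replicate 1, 5 members were called in HFCC and 6 in HFGC.

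In HFDC the other 6 members that fell were Ivd, Haao, Sardh, Uroc1, Prodh and Gpt. Prodh was at 9.54, 10.04 and 9.68 in HFDC, against 10.64, 10.39 and 10.35 in HFCC and 10.13, 10.09 and 10.84 in HFGC. The HFDC arrays lay under all arrays of HF and of the other two coffees, and Prodh fell by 0.94 ± 0.19 against HF on the log2 scale (limma adjusted p = 0.024). Against the same HF arrays, Prodh differed by -0.24 ± 0.19 in HFCC and by -0.34 ± 0.19 in HFGC and did not pass.

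Sardh was at 10.99, 11.24 and 11.19 in HFDC, below every HF array and overlapping ND. It fell by 0.43 ± 0.11 on the log2 scale (limma adjusted p = 0.044), and its second probe set fell by 0.63 ± 0.11. In HFCC and HFGC, Sardh stayed between 11.36 and 11.59, within or near the HF range, on its brightest probe set. On the second one, HFCC read 11.06, 10.99 and 10.92 and HFGC 10.95, 10.96 and 11.1, all under the HF arrays at 11.13, 11.52 and 11.48. The differences there were -0.38 ± 0.11 and -0.37 ± 0.11 and did not pass (limma adjusted p over all probe sets = 0.08 and 0.067). Gpt stood at 10.71, 10.94 and 11.02 in HFDC and at 11.28, 11.56 and 11.61 in HF, and fell by 0.59 ± 0.15 (limma adjusted p = 0.037). On its second, dimmer probe set the groups overlapped, at 7.44, 7.63 and 7.74 in HFDC and 7.66, 7.96 and 8.03 in HF. Uroc1, the urocanate hydratase of histidine breakdown, was at 10.87, 11.17 and 11.14 in HFDC and at 11.32, 11.55 and 11.64 in HF. It fell by 0.44 ± 0.11 on the log2 scale (limma adjusted p = 0.034), and the groups did not overlap. Ivd fell by 0.38 ± 0.1 and Haao by 0.38 ± 0.1 (limma adjusted p = 0.044 for both), but Ivd did not pass with its probe sets averaged, at -0.26 (limma adjusted p = 0.19). The HFDC arrays of both genes lay below all HF arrays, at 9.95 to 10.14 for Ivd and 11.34 to 11.67 for Haao. In HFCC and HFGC, Ivd lay between 10.24 and 10.45 and Haao between 11.55 and 11.75, and some of these arrays reached into HF. Gnmt was at 13.62, 13.77 and 13.78 in HFDC, under the HF arrays, and differed by -0.17 ± 0.08 (limma adjusted p = 0.2). Agxt2 and Dmgdh differed from HF by -0.37 ± 0.13 and -0.4 ± 0.15 and did not pass (limma adjusted p = 0.099 and 0.14). In HFDC 0 members were called without HF replicate 2, HF replicate 3, HFDC replicate 1 or HFDC replicate 3, 1 without HFDC replicate 2, and 3 or 4 without HFCC replicate 2 or 3 or HFGC replicate 1 or 2.

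With the 3 coffee groups pooled against HF, 6 members fell (14%) and 1 rose. The background was 6.88% of all genes lower, 12.5% among the brighter genes, and 3.39% higher, so the share that fell was near that of genes of like level. Bckdha fell by 0.44 ± 0.08, Uroc1 by 0.36 ± 0.09 and Prodh by 0.51 ± 0.15 on the log2 scale (limma adjusted p = 0.0073, 0.019 and 0.046). Haao fell by 0.29 ± 0.08, Fah by 0.22 ± 0.07 and Got2, the mitochondrial aspartate aminotransferase, by 0.22 ± 0.06 (limma adjusted p = 0.037, 0.043 and 0.03). Got2 arrays read 12.31, 12.49 and 12.5 in HF and 12.13 to 12.34 in the coffee groups, of which the third HFGC array was the single one inside the HF range. A second probe set of Got2 went the other way, by 0.26 ± 0.09, and did not pass, and with probe sets averaged the difference of Got2 was -0.05 (limma adjusted p = 0.57). For Fah, 1 HFCC and 1 HFGC array, at 12.68 and 12.73, lay above the lowest HF array. Uroc1 read 11.19, 11.34 and 11.18 in HFCC and 11.05, 11.04 and 11.27 in HFGC, where 1 HFCC array passed the lowest HF array, and stood at 11.15, 11.37 and 11.38 in ND.

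Cth was the member that rose with coffee. It read 12.74, 12.72 and 12.56 in HFCC, 12.04, 12.34 and 12.46 in HFDC, and 12.71, 12.31 and 13.08 in HFGC. The rise over HF was 0.48 ± 0.14 for the 3 groups together (limma adjusted p = 0.04, lost without any one of 8 of the 15 arrays), and the HFCC and HFGC arrays were all above the HF arrays, the lowest of HFGC only just, while HFDC overlapped them. Taken singly, the differences were 0.6 ± 0.17 in HFCC, 0.21 ± 0.17 in HFDC and 0.63 ± 0.17 in HFGC, and none passed (limma adjusted p = 0.071, 0.51 and 0.055). Got1 was at 10.75, 10.8 and 10.4 in HFCC, 10.12, 10.15 and 10.74 in HFDC, and 11.01, 9.98 and 11.15 in HFGC, and these arrays reached into both the HF and the ND range. Oat was at 12.61, 13.07 and 12.82 in HFCC, 12.52, 12.78 and 12.84 in HFDC, and 12.91, 12.65 and 12.97 in HFGC, where 5 of the 9 arrays passed the highest HF array. Its difference from HF was 0.38 ± 0.14 and did not pass (limma adjusted p = 0.11). Got1 differed from HF by 0.71 ± 0.26 and Aass by 0.31 ± 0.13 over the 3 groups and did not pass (limma adjusted p = 0.1 and 0.14). Diet and the 3′ to 5′ gap cannot be told apart in the comparisons of coffee with HF either. With the gap as a covariate, 0 members were called in any of them, and neither was any other of the 18194 genes. For the coffee groups together, Bckdha then differed by -0.38 ± 0.12, Uroc1 by -0.44 ± 0.14, Haao by -0.44 ± 0.13 and Prodh by -0.64 ± 0.25 (limma adjusted p = 0.41, 0.41, 0.41 and 0.43). Cth differed by 0.13 ± 0.2 (0.85), and Aass by -0.11. At an unadjusted p under 0.05, 9 members and 1920 of all genes passed in this fit. Without HF replicate 2 or without HF replicate 3, 0 members were called for the coffee groups together, and without HF replicate 1, 11 were. Bckdha and Uroc1 were lost under these 2 omissions alone. From 2 to 4 members were called without HFCC replicate 2 or 3, HFDC replicate 1 or 3, or HFGC replicate 1.

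**Figure D4:**
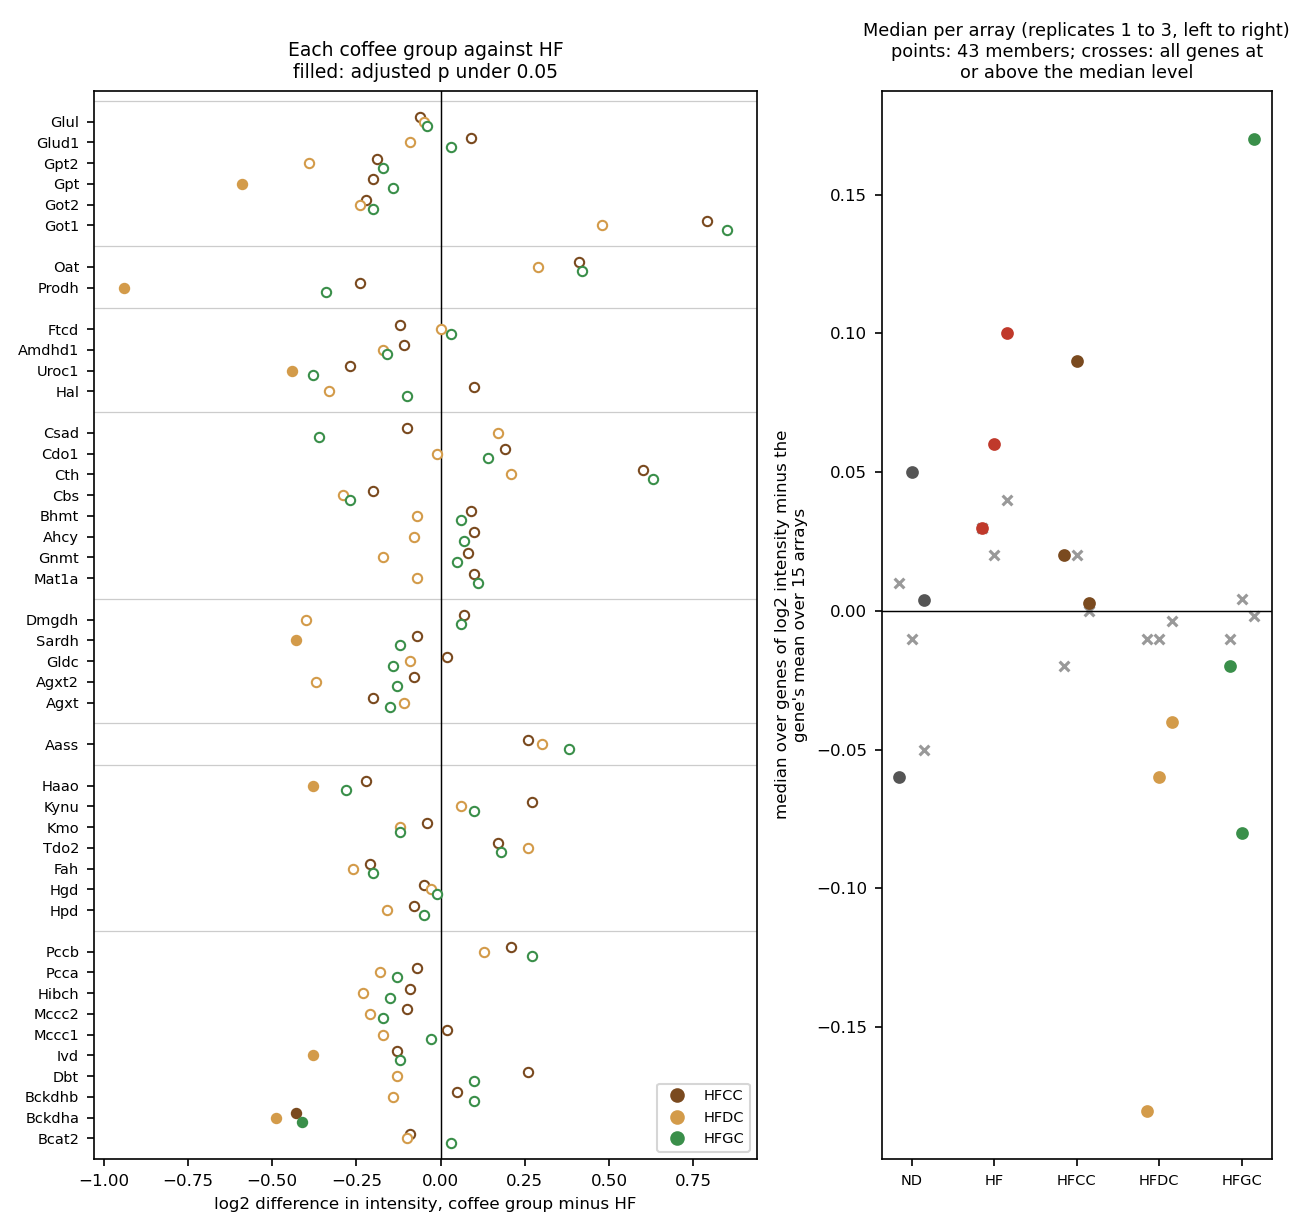
Left, log2 difference in intensity of each coffee group from HF (horizontal axis) for the 43 members, with filled points where limma gave an adjusted p under 0.05. Right, the median over the members (points) and over all genes at or above the median level (crosses) of log2 intensity minus the gene's own mean over 15 arrays, for each array by diet group; HFDC replicate 1, at -0.18, and HFGC replicate 3, at 0.17, lie farthest from 0.

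Set against ND, the coffee groups together had 2 members higher, 1 lower and 40 not called, with 2.36% of all genes higher and 1.73% lower. Agxt2 was 0.57 ± 0.1 and Sardh 0.47 ± 0.09 above ND, and Aass was at -0.57 ± 0.13 (limma adjusted p = 0.0084, 0.012 and 0.024). The Agxt2 arrays read 10.59, 10.6 and 10.41 in HFCC, 10.01, 10.4 and 10.33 in HFDC, and 10.36, 10.4 and 10.7 in HFGC. All 12 high-fat arrays of Agxt2 were above the 3 ND arrays, the closest being the first HFDC array. With the 3′ to 5′ gap as a covariate 3 members were called here as well. Without ND replicate 1 or ND replicate 3, Agxt2 was the 1 member called, and Aass was also lost without ND replicate 2.

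Between coffees, 0 members were called by limma in any of the 3 pairs. The background was 0.0934% of all genes between HFDC and HFCC, 0% between HFGC and HFCC, and 0.0385% between HFGC and HFDC. At an unadjusted p under 0.05, 11, 0 and 10 members passed, beside 10.7%, 2.04% and 9.4% of the brighter genes. HFDC lay below HFCC for 36 of 43 members, with a median of -0.16, where 53.2% of the brighter genes were below 0. HFGC lay above HFDC for 38 of 43, with a median of 0.11, where 53% of the brighter genes were above 0, and both counts use the same HFDC arrays. Between HFGC and HFCC, 20 members were above and 23 below 0, a split that rested on single arrays. Without HFGC replicate 3, 37 were below 0, and without HFGC replicate 2, 13 were. With the 3′ to 5′ gap as a covariate, 30 were below 0.

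Prodh differed most, by -0.71 ± 0.19 for HFDC minus HFCC and by 0.6 ± 0.19 for HFGC minus HFDC (limma adjusted p = 0.24 and 0.45). Dmgdh differed by -0.47 ± 0.15 and 0.46 ± 0.15 (limma adjusted p = 0.4 and 0.52), and Gpt by -0.39 ± 0.15 and 0.45 ± 0.15 (0.51 and 0.5). On the dimmer probe set of Gpt, HFDC at 7.44 to 7.74 overlapped both HFCC, at 7.65 to 7.79, and HFGC, at 7.69 to 7.82. Part of the pattern lay in single arrays. HFDC replicate 1 was below the members' own means for 39 of 43, with a median of -0.18, and HFGC replicate 3 was below them for 5, with a median of 0.17. The medians of the brighter genes on these arrays were -0.01 and -0.002. Their 3′ to 5′ gaps were 1.06 and 0.7, the widest and the smallest of the arrays of these groups. HFCC replicate 1 had a gap of 1.07 and a member median of 0.02. HF replicates 2 and 3 had gaps of 1.4 and 1.17 and member medians of 0.06 and 0.1. The part of the gap in these medians was not tested. Without HFDC replicate 1, HFDC lay below HFCC for 33 members, with a median of -0.08. With the gap as a covariate, the count was 36 and the median -0.16. HFGC lay above HFDC for 30 members without HFDC replicate 1, for 29 without HFGC replicate 3 and for 31 with the covariate, with medians of 0.05, 0.06 and 0.07.

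Several members had more than 1 probe set, and not all of them told the same story. For 26 members there was 1 probe set, and for 17 there were several. Between HF and ND, the probe sets of 6 of the 17 differed in sign, namely Glul, Got2, Gpt2, Mccc2, Pcca and Tdo2. Those of 5 differed in their call, namely Got2, Ivd, Mccc1, Mccc2 and Pcca. Mccc2 encodes the beta subunit of the methylcrotonyl-CoA carboxylase of leucine breakdown. Its brightest probe set differed by 0.24 ± 0.09 and was not called, while a dimmer one fell by 0.74 ± 0.19 in HF and rose by 0.75 ± 0.15 with coffee (limma adjusted p over all probe sets = 0.021 and 0.012). For Got2 the brightest probe set differed by 0.19 ± 0.07, and another fell by 0.38 ± 0.12 (limma adjusted p over all probe sets = 0.12 and 0.043). For Uroc1 both probe sets fell in HFDC, by 0.44 ± 0.11 and 0.55 ± 0.11. Which transcripts each probe set reads was not tested.

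**Figure D5:**
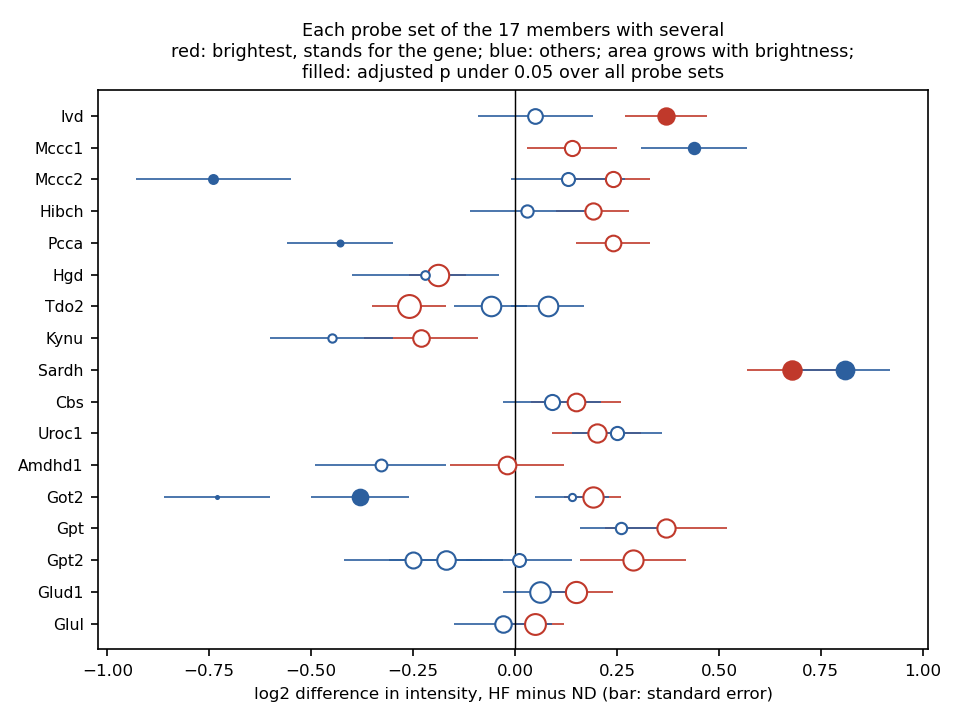
Log2 difference in intensity between HF and ND (horizontal axis) for each probe set of the 17 members with several (vertical axis). Red marks the brightest probe set, blue the others, a larger point a brighter one, bars the standard error, and filled points an adjusted p under 0.05 over all probe sets; Mccc2 and Got2 have filled blue points below 0 and red points above 0, and both points of Sardh are filled, at 0.68 and 0.81.

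Other genes of amino acid breakdown, 79 that were not members, also moved in both directions, with 10 higher and 7 lower between HF and ND by limma, and a median of 0.02. Beside Bckdha, Bckdk, the kinase that switches the branched-chain dehydrogenase complex off, rose by 0.34 ± 0.08 in HF and fell by 0.3 ± 0.07 with coffee against HF (limma adjusted p = 0.016 and 0.017). Dld, the subunit the complex shares with pyruvate dehydrogenase and glycine cleavage, fell by 0.44 ± 0.12 and rose by 0.41 ± 0.1 in these comparisons (limma adjusted p = 0.03 and 0.021). Arg1, the urea cycle arginase, fell by 0.53 ± 0.12, and Gamt, the last enzyme of creatine synthesis, rose by 1.15 ± 0.21 (limma adjusted p = 0.013 and 0.0043). Against HF, the counts higher and lower of these 79 were 0 and 1 in HFCC, 2 and 3 in HFDC and 0 and 1 in HFGC. Among 25 amino acid transporters, 4 rose and 1 fell in HF. For these lists and those below, the background between HF and ND was 8.92% of all genes higher and 4.63% lower. Among the brighter genes it was 15.2% and 5.44%.

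Of 15 measured regulators of these pathways, 3 rose in HF, namely Ppara, the fatty acid sensing nuclear receptor that also governs amino acid enzymes, by 0.92 ± 0.13, Cebpb by 0.61 ± 0.1 and Atf4 by 0.39 ± 0.1 (limma adjusted p = 0.0016, 0.0026 and 0.015). With coffee against HF, 5 of the 15 fell and 1 rose, where 6.88% of all genes and 12.5% of the brighter ones fell and 3.39% of all genes rose. Ppara fell by 0.66 ± 0.11, Foxo1 by 0.52 ± 0.08 and Cebpa by 0.28 ± 0.05, while Atf4 rose by 0.3 ± 0.08 (limma adjusted p = 0.0073, 0.0067, 0.0093 and 0.026). The rise of Atf4 was not even, with means of 10.46 in HF, 10.97 in HFCC, 10.52 in HFDC and 10.8 in HFGC. Markers of other cells and of liver zones moved beside the members. Between HF and ND, 4 of 9 stellate cell markers were higher, with a summed intensity of 3531 to 4000 in ND and 4021 to 5077 in HF, and 5 of 11 pericentral markers were higher, summing to 43084 to 51847 and 53565 to 56252. Of 10 periportal markers 2 were lower and 1 higher, with sums of 72295 to 73242 in ND and 64940 to 70862 in HF, and 0 of 9 macrophage markers passed. Their part in the members' differences was not tested.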

How the data were processed

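The authors hybridised liver RNA to Affymetrix Mouse Genome 430 2.0 arrays and deposited intensities normalized by RMA, a method that corrects background, scales arrays to a common distribution and summarises probes. That software's version is not given in the sources used here. Values as deposited were linear, with a median intensity per array of 48.5 to 50, and were taken to log2. Probe sets were named through the platform annotation. Of 45101 probe sets, 64 were controls, among them those of Gapdh and Actb that gave the 3′ to 5′ gap. A gene symbol was listed for 35890 probe sets, of which 34958 had 1 symbol, and 932 had several and were not named. Probe sets without a single symbol were not used for the gene levels. Each gene was read from its brightest probe set, a set ending in _x_at being used only where no other existed.

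The 5 diet groups, with 3 arrays each, were fitted in 1 model of group means with 10 residual degrees of freedom (limma 3.58.1, R 4.3.3), and p-values were adjusted over 18194 genes. The median standard error of a difference between groups was 0.0918 (log2), and the number of arrays limits the precision. An exact permutation test of 3 against 3 arrays cannot go below p = 0.1 and was not used. Alternatives were the probe set rule, the normalization, the test settings, the RNA quality covariate, the replicate block, the samples fitted and each array left out. By rule, the text gives array values for members called in at least 1 comparison, up to 4 per class, and for Gnmt, Agxt2 and Oat, and up to 4 called genes of each other gene list, those with the largest changes. The other members given with values were named after their values were seen. The members and all gene lists were chosen with earlier results of these data known.

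Promoter sequences are from RefSeq, build GRCm38.p6, and 38 of the 44 members matched by symbol.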

Additional observations from a re-analysis of the deposited data

How the results depend on the processing

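The calls rested on few arrays. When each of the 15 arrays was left out in turn, the members called ranged from 4 to 13 in HF against ND, from 0 to 5 in HFCC, 0 to 9 in HFDC and 0 to 6 in HFGC against HF, from 0 to 11 in the coffee groups together against HF, and from 1 to 4 against ND. In each pair of coffees the count was 0 throughout. With the compared groups fitted alone, 5 members were called in HF against ND and 0 in HFCC, HFDC and HFGC against HF. With the 3′ to 5′ gap as a covariate, 0 members were called in these 4 comparisons and 0 in the coffee groups together against HF. Asking for a 1.5-fold change as well left 5 members in HF against ND, 2 in HFDC and 0 in HFCC, HFGC and both comparisons of the coffee groups together. Cyclic loess between arrays gave 0 in HFCC, 2 in HFDC and 0 in HFGC. An adjusted p under 0.1 gave 2, 12 and 3 in these, and genes at or above the median level alone gave 2 in HFCC and 3 in HFGC. All probe sets tested singly gave 2 in HFGC. In HF against ND the count stayed at 10 with limma's trend and robust settings, but Got1 and Cth were lost and Tdo2 and Mat1a gained. Got1 and Cth were also lost there with the compared groups fitted alone. The causes of these shifts were not tested.

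Signs turned for values that had not passed. With the covariate, the difference of Aass from HF was -0.12 in HFCC, -0.08 in HFDC, -0.14 in HFGC and -0.11 together, that of Got1 in HFDC was -0.01 and that of Cth in HFDC was -0.11. Oat was at 0.35 in HF against ND and at -0.11 with coffee against HF, and Tdo2 at 0.02 in HF against ND. Oat in HF against ND ranged from -0.35 to 0.01 with single arrays left out, being above 0 without ND replicate 2. With the probe sets of a gene averaged, Mccc2 was at -0.12 in HF against ND and at 0.22 with coffee, and Got2 at -0.2 in HF against ND, where it passed (limma adjusted p = 0.043), which follows from their probe sets of opposite sign. The average counts equally the dimmest of the 4 probe sets of Got2, at 3.94, 3.91 and 4.32 in ND and 3.37, 3.38 and 3.25 in HF.

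With the replicate number as a block, 2 members were called in HFGC against HF, and no other count moved by over 1.5 times. Single calls were lost all the same. Ivd and Sardh no longer passed in HFDC against HF (limma adjusted p = 0.053 and 0.052), nor Fah in the coffee groups together against HF (0.052). The labels do not say that a number marks a shared batch. Deviations of same-numbered arrays correlated between -0.28 and 0.23, and 6 of 15 arrays were nearest to their own number. The medians over members were recomputed under each alternative, a check chosen after seeing the data.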
